A study of Mus musculus with 12 samples.

Results

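Genes for 10 transporters that carry amino acids across the cell membrane were followed in 12 lines of Ba/F3 cells: Slc3a2, Slc7a5, Slc7a11, Slc7a1, Slc7a3, Slc1a4, Slc1a5, Slc38a1, Slc38a2 and Slc6a9. The genes were chosen by name, with earlier results of these data known. All 10 were found by symbol and Ensembl identifier among the 55471 genes of the count table. Of the 10, 9 had enough reads to be tested, with 17197 genes tested in all, and Slc7a3 did not.

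Ba/F3 is a mouse pro-B cell line that depends on interleukin-3 (IL-3) unless an oncogene replaces its signal. RNA sequencing of total RNA was done on 3 groups of 4 biologically independent lines, all taken in exponential growth. Lines of the MSCV group, the controls, had only the empty MSCV vector, a retrovirus, and received 0.5 ng/ml of murine IL-3. Lines of the BCR-ABL1 and SFPQ-ABL1 groups were transformed by these fusions of the tyrosine kinase ABL1, which occur in acute lymphoblastic leukaemia, and received no IL-3. Against MSCV, a fusion and the absence of IL-3 therefore cannot be told apart, and only SFPQ-ABL1 against BCR-ABL1 compares lines grown in the same way. Ba/F3 is a single cell line, and in RNA from whole cultures more RNA per cell and more cells with a high level cannot be told apart.

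Some of these transporters are exchangers, which bring in a particular amino acid while letting another out, some use the sodium gradient to concentrate amino acids inside the cell, and some carry cationic amino acids down their own gradient. Imported amino acids serve protein synthesis, glutathione and nucleotide synthesis, and leucine and arginine inside the cell also feed the mTORC1 growth pathway. When amino acids run short, the kinase GCN2 raises translation of the transcription factor ATF4, and several transporter genes are textbook ATF4 targets. Dividing lymphocytes and leukaemia cells are known for high levels of several of these carriers.

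In the BCR-ABL1 lines all 9 tested transporter genes were higher than in the MSCV lines, from 1.37-fold for Slc38a1 to 4.31-fold for Slc7a11. In the SFPQ-ABL1 lines none of the 9 passed the test against MSCV, and 8 of them were lower than in the BCR-ABL1 lines, from 1.64-fold for Slc1a5 to 3.26-fold for Slc6a9. A gene was called at an adjusted p under 0.05 in edgeR's quasi-likelihood test over all 17197 genes, and levels are given as CPM, gene counts relative to the library total after scaling by TMM factors.

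Gene counts per library ran from 59355018 to 80616227, so that 1 CPM stood for 61.1 to 82.2 counts. For single exons of the fusion partners, CPM are exon counts relative to the library's gene count total, without TMM factors. They are not on the scale of the gene levels. Reads on Abl1 exon 9, which both fusions contain, came to at most 0.0529 CPM in the MSCV lines, 9.23 to 20.8 CPM in the BCR-ABL1 lines and 4.36 to 26.8 CPM in the SFPQ-ABL1 lines. SFPQ-ABL1 line 2 stood apart as the lowest, with 4.39 CPM on Sfpq exon 9 against 14.5 to 20.02 CPM in the rest of its group, and BCR-ABL1 line 4 had 3.60 CPM on that exon, against 1.53 to 1.98 CPM in the rest of its own. Bcr exon 1 had 1.33 to 2.64 CPM in the BCR-ABL1 and 0.0661 to 0.151 CPM in the MSCV lines. On that exon SFPQ-ABL1 line 2 had 0.304 CPM, against 0.0744 to 0.168 CPM in the rest of its group. MSCV line 2 had the largest share of exon reads on the last exon of a gene, a median of 60.8% against 46.8% to 53.6% in the other libraries. Of 12 pro-B markers, Cd79a and Cd79b were well expressed, Il7r was at 0 in every line and Pax5, Ebf1, Rag1, Rag2 and Dntt were below 0.11 CPM in every line. The summed level of the pro-B list was 130 to 152 CPM in the MSCV, 49.1 to 71.9 in the BCR-ABL1 and 85.1 to 98.7 in the SFPQ-ABL1 lines, and the part of this difference in the transporter results was not tested. The summed fibroblast list reached at most 1.31 CPM, the T cell list at most 22.3, and the mast cell and basophil list 52.7, in a BCR-ABL1 line. The granulocyte and monocyte list came to 30.8 to 61.2 CPM in the MSCV, 15.4 to 27.1 in the BCR-ABL1 and 39.4 to 97.7 in the SFPQ-ABL1 lines.

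ATF4 binds DNA together with C/EBP proteins at a composite site, and Slc7a11 is a textbook target of that kind. The start sites of the members were searched for the letters TGATGNAA on either strand (TTNCATCA on the opposite strand), in RefSeq windows of 300 bases on GRCm38.p6. Windows were at hand for 6 of the 10 genes, and none was used for Slc1a5, Slc38a1, Slc7a3 and Slc7a5. Some genes had more than 1 window, and the 6 genes had 9. Of all 32851 windows, 3.97% held these letters, a share of windows and not of genes. Of the 9 windows 2 did, those of Slc7a11 and Slc1a4, and they are shown because they hold these letters. Both genes rose more than 3-fold in the BCR-ABL1 lines, as did Slc6a9 and Slc7a1, whose windows did not hold them. Each stretch runs 5′ to 3′ on the gene's own strand from 100 bases before to 10 bases after the start, with the matches in capitals. The first is chr3:50443604-50443713 and the second chr11:20332704-20332813, both on the minus strand.
Slc7a11: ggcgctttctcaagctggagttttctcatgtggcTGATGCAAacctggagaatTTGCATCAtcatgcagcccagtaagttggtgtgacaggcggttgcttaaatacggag
Slc1a4: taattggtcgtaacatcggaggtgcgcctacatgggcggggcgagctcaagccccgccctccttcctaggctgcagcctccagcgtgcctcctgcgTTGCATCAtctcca
Slc7a11 held 2 matches, whose first bases lay 66 and 47 bases before the start, on opposite strands. Slc1a4 held 1, on the strand opposite to the gene, with its first base 4 bases before the start. The windows of Slc3a2, Slc38a2, Slc6a9 and Slc7a1 did not hold these letters, which says only that they are not in those windows. Among the genes of the amino acid response described further on, 7 of the 16 with a window held a match, in 7 of their 20 windows. They were Asns, Atf3, Chac1, Jdp2, Nupr1, Trib3 and Vldlr. Of these, Atf3, Chac1 and Vldlr had at most 0.121 CPM in any line, too little to be tested. The core of the antioxidant response element, TGACNNNGC on either strand, was in windows of Slc38a2, Slc6a9 and Slc7a1 and in 12.39% of all windows, and the E-box CACGTG was in no member's window and in 7.15% of all. A match of letters is not a site that was measured.

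Slc3a2 encodes the heavy chain CD98, a membrane glycoprotein that carries light chains such as LAT1 and xCT to the cell surface. The gene lies on mm10 chromosome 19 from 8706882 to 8723369. It stood at 245, 150, 210 and 175 CPM in MSCV lines 1 to 4, at 418, 483, 476 and 448 CPM in BCR-ABL1 lines 1 to 4, and at 198, 189, 227 and 239 CPM in SFPQ-ABL1 lines 1 to 4. Every BCR-ABL1 line was above every other line, while the MSCV and SFPQ-ABL1 lines overlapped. Slc3a2 was 2.34-fold higher in BCR-ABL1 than in MSCV (log2 1.23 ± 0.14 SE, adjusted p = 5.67e-05), and the BCR-ABL1 lines exceeded the SFPQ-ABL1 lines 2.14-fold (adjusted p = 0.000234).

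Slc7a5, on chromosome 8 from 121881150 to 121907694, encodes LAT1, the light chain that imports leucine and other large neutral amino acids. It stood at 256, 137, 147 and 125 CPM in the MSCV lines, at 404, 425, 472 and 422 CPM in the BCR-ABL1 lines and at 189, 182, 181 and 211 CPM in the SFPQ-ABL1 lines. MSCV line 1 was above every SFPQ-ABL1 line, and the other MSCV lines were below all of them. The BCR-ABL1 lines again lay above all others, 2.59-fold over MSCV (log2 1.37 ± 0.19 SE, adjusted p = 0.000183) and 2.26-fold over SFPQ-ABL1 (adjusted p = 0.000808).

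Slc7a11, on chromosome 3 from 49892526 to 50443614, encodes xCT, which exchanges glutamate for cystine, the precursor of the cysteine in glutathione. Its promoter stretch with 2 matches is printed above. It stood at 12.3, 6.76, 9.61 and 7.90 CPM in the MSCV lines, at 33.6, 46.4, 37.8 and 40.0 CPM in the BCR-ABL1 lines and at 13.7, 10.7, 12.6 and 16.8 CPM in the SFPQ-ABL1 lines. Only MSCV line 1 reached the range of the SFPQ-ABL1 lines, and the BCR-ABL1 lines overlapped with neither group. Slc7a11 had the largest fold of the 9 genes in BCR-ABL1 against MSCV, 4.31-fold (log2 2.11 ± 0.19 SE, adjusted p = 1.82e-05). It also had the largest log2 difference of SFPQ-ABL1 from MSCV, 0.55 with a 95% interval from 0.15 to 0.95, at an unadjusted p of 0.0103 and an adjusted p of 0.136.

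**Figure D1:**
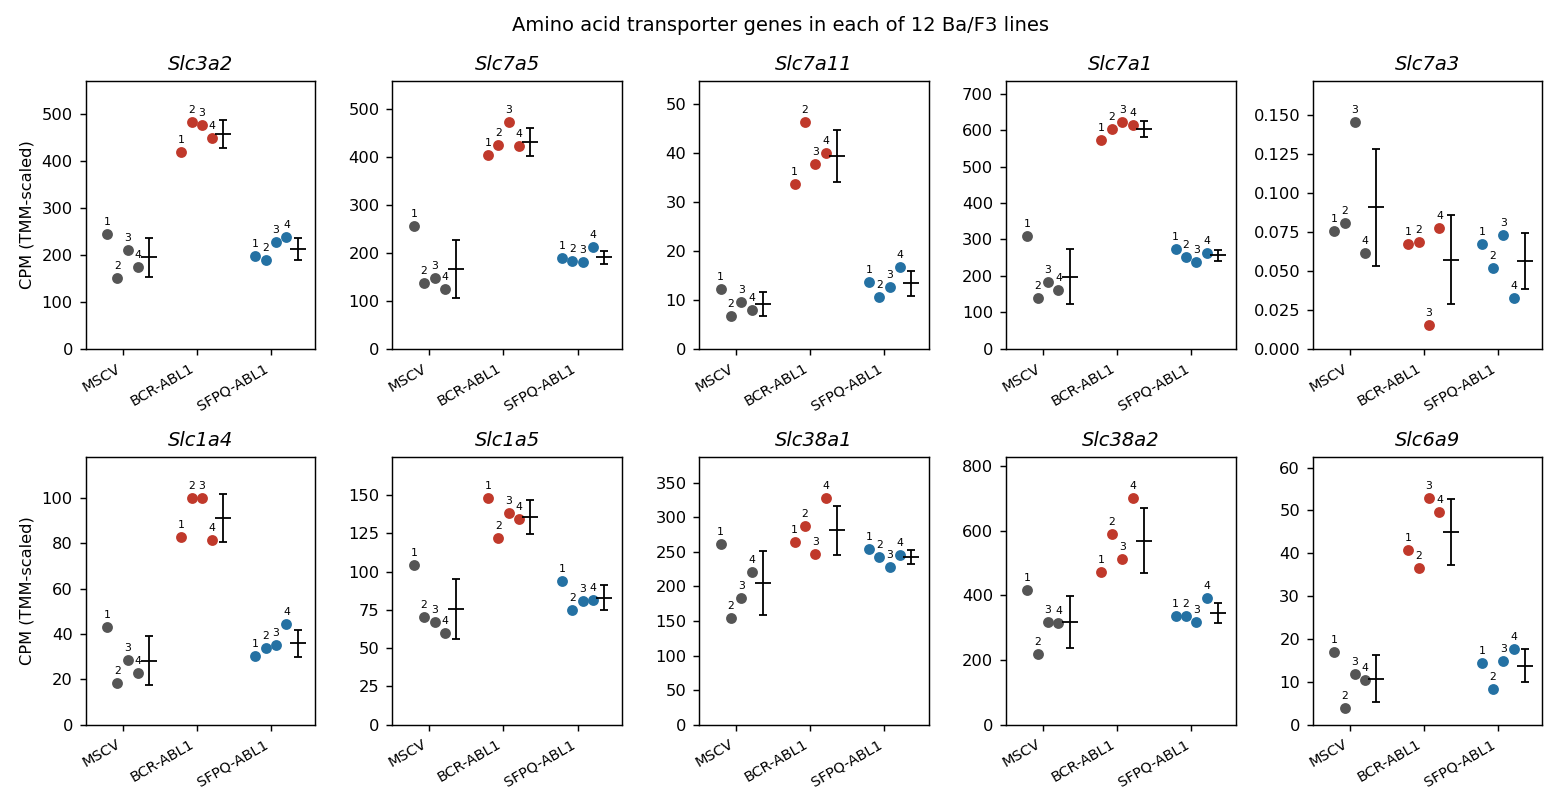
Level of each of the 10 transporter genes in CPM (vertical axis, TMM-scaled, from 0, its own scale per gene) in the 4 lines of each group; points are lines with their numbers, and the horizontal mark with its bar is the mean ± SD of 4 lines. The BCR-ABL1 points lie above all others for 8 genes, Slc38a1 overlaps between groups, MSCV line 1 is the highest MSCV line in the 9 tested genes, and Slc7a3 stays below 0.15 CPM.

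Since Slc3a2 pairs with several light chains, its level per length was set against the summed level per length of Slc7a5, Slc7a11, Slc7a6, Slc7a7 and Slc7a8. The ratio of CPM per kilobase of exon was 0.718 ± 0.067 (SD, n = 4) in the MSCV, 0.781 ± 0.034 in the BCR-ABL1 and 0.714 ± 0.051 in the SFPQ-ABL1 lines. The BCR-ABL1 mean was the highest, but its range, 0.752 to 0.827, overlapped with those of both other groups. Heavy and light chain transcripts were both higher in the BCR-ABL1 lines, and whether their ratio differed was not tested. The makeup of the light chains differed: Slc7a5 held 56.9% ± 6.5 of the light chain level in the MSCV lines, 70.2% ± 0.74 in the BCR-ABL1 lines and 60.8% ± 1.8 in the SFPQ-ABL1 lines. Slc7a6 and Slc7a7, light chains for cationic and neutral amino acids, held 23.9% ± 2.2 and 18.3% ± 4.6 in the MSCV lines. Their shares were 15.1% ± 0.83 and 13.0% ± 0.97 in the BCR-ABL1 lines. In the SFPQ-ABL1 lines they were 24.4% ± 1.6 and 13.6% ± 2.6. The Slc7a6 share was at most 15.9% in the BCR-ABL1 lines, and at least 21.1% in the MSCV and 22.7% in the SFPQ-ABL1 lines. The Slc7a7 share overlapped between all groups, with 12.1% in the lowest MSCV and 14.2% in the highest BCR-ABL1 line. Slc7a11 held 0.846% in the MSCV and 1.71% in the BCR-ABL1 lines, so xCT transcripts were a small part of the light chains in each group. These shares are descriptions and were not tested.

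Slc7a1, on chromosome 5 from 148327410 to 148399904, encodes the cationic amino acid transporter that imports arginine, lysine and ornithine without a heavy chain. It stood at 308, 139, 183 and 163 CPM in the MSCV lines, at 573, 602, 622 and 614 CPM in the BCR-ABL1 lines and at 274, 252, 238 and 262 CPM in the SFPQ-ABL1 lines. The BCR-ABL1 lines lay closest together here, with a coefficient of variation of 3.59%, and above all others. Slc7a1 was 3.04-fold higher in BCR-ABL1 than in MSCV (log2 1.61 ± 0.19 SE, adjusted p = 8.8e-05) and 2.35-fold higher than in SFPQ-ABL1 (adjusted p = 0.00076). Slc7a3, a related carrier of cationic amino acids on chromosome X from 101079210 to 101086020, had 4 to 11 counts in the MSCV lines, 1 to 5 in the BCR-ABL1 lines and 2 to 6 in the SFPQ-ABL1 lines. At this depth Slc7a3 could not be compared: with the filter on low counts left off, its adjusted p against MSCV was 0.512 for BCR-ABL1 and 0.621 for SFPQ-ABL1.

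Slc1a4, on chromosome 11 from 20302180 to 20332713, encodes ASCT1, an exchanger of alanine, serine, cysteine and threonine. It stood at 43.2, 18.5, 28.3 and 22.6 CPM in the MSCV lines, at 82.8, 100.2, 100.1 and 81.5 CPM in the BCR-ABL1 lines and at 30.2, 33.8, 34.9 and 44.4 CPM in the SFPQ-ABL1 lines. The BCR-ABL1 lines were above all others, and MSCV line 1 lay among the SFPQ-ABL1 lines. Slc1a4, whose promoter stretch with 1 match is printed above, was 3.23-fold higher in BCR-ABL1 than in MSCV (log2 1.69 ± 0.22 SE, adjusted p = 0.000135) and 2.55-fold higher than in SFPQ-ABL1 (adjusted p = 0.000915).

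Slc1a5, on chromosome 7 from 16781340 to 16798274, encodes ASCT2, an exchanger known for glutamine uptake. Its levels were 104, 70.5, 67.0 and 60.1 CPM in the MSCV lines, 148, 122, 138 and 135 CPM in the BCR-ABL1 lines and 94.1, 74.9, 80.8 and 81.4 CPM in the SFPQ-ABL1 lines. The BCR-ABL1 lines did not overlap with the others. The rise was smaller than that of its relative Slc1a4: 1.80-fold over MSCV (log2 0.85 ± 0.15 SE, adjusted p = 0.00103) and 1.64-fold over SFPQ-ABL1 (adjusted p = 0.00406). The difference between the 2 genes was not tested.

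Slc38a1 and Slc38a2 are neighbours on chromosome 15, from 96571418 to 96642913 and from 96687392 to 96699730, and encode SNAT1 and SNAT2, sodium-coupled importers of glutamine, alanine and other small neutral amino acids. SNAT2 is the carrier classically induced when cells are deprived of amino acids. Slc38a2 stood at 417, 218, 318 and 313 CPM in the MSCV lines, at 472, 588, 513 and 702 CPM in the BCR-ABL1 lines and at 337, 337, 316 and 391 CPM in the SFPQ-ABL1 lines. The BCR-ABL1 lines were above all others, 1.80-fold over MSCV (log2 0.85 ± 0.17 SE, adjusted p = 0.00267) and 1.65-fold over SFPQ-ABL1 (adjusted p = 0.00887).

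Slc38a1 behaved least like the rest. It stood at 261, 154, 183 and 221 CPM in the MSCV lines, at 264, 287, 246 and 329 CPM in the BCR-ABL1 lines and at 254, 242, 228 and 246 CPM in the SFPQ-ABL1 lines. All groups overlapped: MSCV line 1 was above BCR-ABL1 line 3. Slc38a1 was 1.37-fold higher in BCR-ABL1 than in MSCV (log2 0.46 ± 0.14 SE, adjusted p = 0.0262). The call was lost when BCR-ABL1 line 4 was left out (log2 0.38, adjusted p = 0.0815). It was also lost with MSCV line 3 left out (0.41, 0.0753), with MSCV line 2 left out (0.35, 0.0602) and with BCR-ABL1 line 2 left out (0.45, 0.0583). Between the fusions its log2 difference, SFPQ-ABL1 minus BCR-ABL1, was -0.21 with a 95% interval from -0.52 to 0.09 (adjusted p = 0.289).

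Slc6a9, on the plus strand of chromosome 4 from 117834506 to 117875198, encodes the glycine transporter GLYT1. It stood at 17.0, 3.82, 11.8 and 10.3 CPM in the MSCV lines, at 40.7, 36.5, 53.0 and 49.6 CPM in the BCR-ABL1 lines and at 14.3, 8.39, 14.9 and 17.5 CPM in the SFPQ-ABL1 lines. Line 2 was the lowest line in each group, and the BCR-ABL1 lines lay above all others. Slc6a9 was 4.18-fold higher in BCR-ABL1 than in MSCV (log2 2.06 ± 0.35 SE, adjusted p = 0.000814) and 3.26-fold higher than in SFPQ-ABL1 (adjusted p = 0.00345). Its interval was the widest of the 9 genes, 1.31 to 2.82 on the log2 scale against MSCV. No annotated gene overlapping a member exceeded 0.542 CPM, the level of B4galt2 at Slc6a9. How reads shared between genes were counted is not given, so these levels do not show how many reads were shared.

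Compared over the group, the 9 of 9 genes called in BCR-ABL1 against MSCV stand beside 32.1% of all genes tested, and 15.8% called higher. Of the 9, 6 were at least 2-fold higher, as were 4.48% of all genes, and 8 had lines that did not overlap, as did 31.6% of all genes, 15.7% with the BCR-ABL1 lines higher. The median log2 fold change of the 9 was 1.37, beside -0.01 over all genes. Without BCR-ABL1 line 2 or line 4, or without MSCV line 2 or line 3, 8 of 9 were called, Slc38a1 being the exception in each case. Leaving out any library in turn moved the fold of no member by more than 1.5 times.

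In SFPQ-ABL1 against MSCV, 0 of 9 genes were called in edgeR, where 1.79% of all genes were, and 1 of 9, Slc7a11, had an unadjusted p under 0.05. DESeq2 and limma-voom also called 0 of 9. All 9 log2 fold changes were above 0, from 0.12 for Slc38a2 to 0.55 for Slc7a11 with a median of 0.24, where 49.7% of all genes were above 0. No member had groups without overlap, against 11.2% of all genes. The upper ends of the 95% intervals ran from 0.43 for Slc3a2 to 1.09 for Slc6a9, so a rise of up to 1 on the log2 scale was within the interval of Slc6a9 and not within that of the other 8. Without MSCV line 1, 2 genes were called, Slc7a1 (log2 0.68, adjusted p = 0.0148) and Slc7a5 (0.49, 0.0279). Without SFPQ-ABL1 line 2 the count remained 0.

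In SFPQ-ABL1 against BCR-ABL1, where no line received IL-3, 8 of 9 genes were called, all lower, where 26% of all genes were called and 12.8% called lower. Of these, 6 were at least 2-fold lower, as were 4.2% of all genes, and 8 had lines that did not overlap, as did 27.9% of all genes, 14% with the SFPQ-ABL1 lines lower. The median log2 fold change was -1.18, beside 0.01 over all genes. The count was 8 also without SFPQ-ABL1 line 2 and without BCR-ABL1 line 4. The BCR-ABL1 lines enter both this comparison and that with MSCV, so the values of both are set side by side and their likeness is no separate result.

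**Figure D2:**
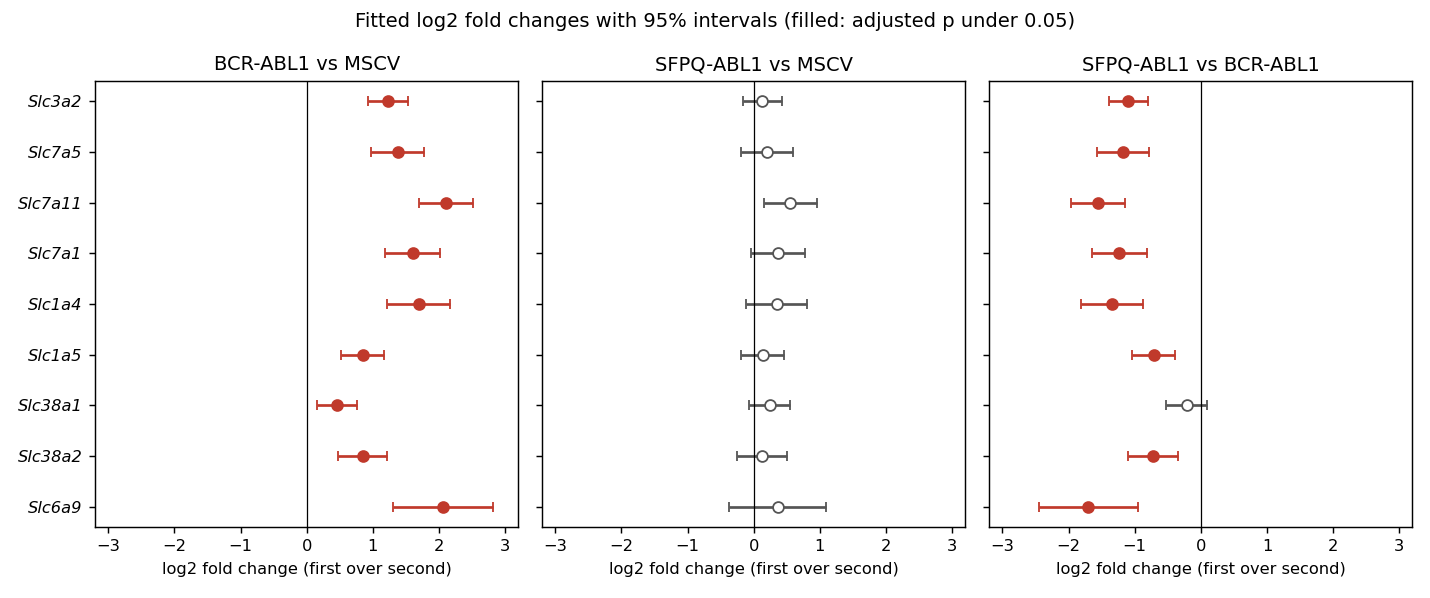
Fitted log2 fold changes of the 9 tested transporter genes (horizontal axis) with 95% intervals, in panels for BCR-ABL1 vs MSCV, SFPQ-ABL1 vs MSCV and SFPQ-ABL1 vs BCR-ABL1; filled red points have an adjusted p under 0.05. All 9 points are filled in the first panel, none in the second, and 8 in the third, where Slc38a1 at -0.21 is open.

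Per kilobase of exon, which allows genes to be compared with each other, the order of the levels in the MSCV lines ran from Slc3a2 at 55.2 ± 11.7 CPM per kilobase (SD, n = 4) over Slc7a5 at 44.8 ± 16.4, Slc38a2 at 35.8 ± 9.2, Slc1a5 at 18.1 ± 4.7, Slc7a1 at 17.2 ± 6.6, Slc38a1 at 11.9 ± 2.7 and Slc1a4 at 7.18 ± 2.7 to Slc6a9 at 2.09 ± 1.1, Slc7a11 at 0.657 ± 0.17 and Slc7a3 at 0.0240 ± 0.0099. The first 3 genes lay within an SD of their neighbours, and so did Slc1a5, Slc7a1 and Slc38a1. All genes were measured in the same lines, so these SDs do not measure how settled the order is. The order was not compared line by line. The gap below Slc38a2 and each gap below Slc38a1 exceeded the SDs of the genes on either side. In the BCR-ABL1 lines Slc3a2 at 129 ± 8.4 and Slc7a5 at 116 ± 7.9 were still first, while Slc7a1 at 52.3 ± 1.9 had passed Slc1a5 at 32.5 ± 2.6, and Slc1a4 at 23.2 ± 2.6 had passed Slc38a1 at 16.3 ± 2.1. In the SFPQ-ABL1 lines Slc7a1 at 22.2 ± 1.3 stood just above Slc1a5 at 19.8 ± 1.9, and Slc38a1 at 14.1 ± 0.63 above Slc1a4 at 9.12 ± 1.5. Exon lengths count all annotated exons of a gene, so genes with long rarely used exons read low on this scale.

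**Figure D3:**
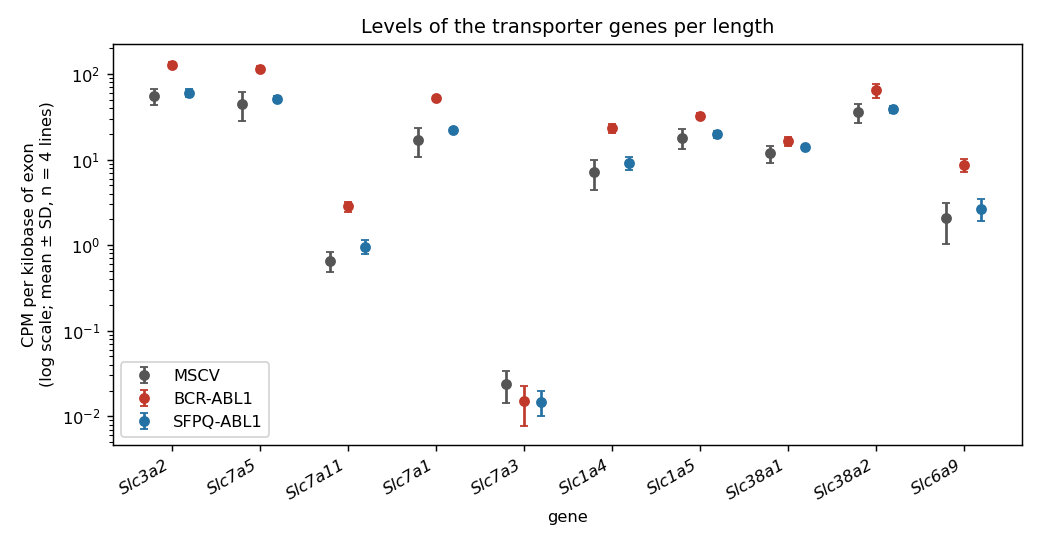
Level of each transporter gene in CPM per kilobase of exon on a log axis, as mean ± SD of 4 lines for MSCV (grey), BCR-ABL1 (red) and SFPQ-ABL1 (blue). Slc3a2 is highest in each group and Slc7a3 lowest, and Slc7a1 and Slc1a4 move up the order in the BCR-ABL1 lines.

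Within the MSCV group the transporter genes moved together between lines. MSCV line 1 was the highest of the 4 in 9 of 9 genes, where it was highest in 22.0% of all genes, and MSCV line 2 was the lowest in 7 of 9, where it was lowest in 32.9% of all genes. MSCV line 2 was also the highest in 32.7% of all genes, so over all genes it stood apart in both directions. Coefficients of variation of the members were 21.2% to 50.5% in the MSCV lines, 3.59% to 17.8% in the BCR-ABL1 lines and 4.47% to 28.0% in the SFPQ-ABL1 lines, with medians over all genes of 17.1%, 14.5% and 15.0%. The 9 genes are not independent of each other, and these counts are descriptions. MSCV line 2 is also the library with the largest share of reads on last exons, 60.8%, and the part of that in its low values was not tested. Without it the log2 fold changes of BCR-ABL1 against MSCV were 0.35 for Slc38a1 to 1.99 for Slc7a11, and without MSCV line 1 they were 0.61 to 2.39, the highest for Slc6a9. In the SFPQ-ABL1 group line 4 was the highest in 6 of 9 genes, against 24.7% of all genes.

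The exon counts gave a second view of the same libraries, along the principal transcript of each gene. Those counts held 18% of the reads of the gene counts, and exons that overlap share reads. In BCR-ABL1 against MSCV both the last exon and the exons before it were higher for 9 of 9 genes. The ratio was larger before the last exon for 9 of 9, as it was for 85% of 7065 genes with enough reads, where the median log2 difference was 0.24. Among the 1514 of these genes called higher, as the 9 were, it was larger there for 90.6%, with a median of 0.30. Slc7a11 was 3.98-fold higher on its last exon and 6.33-fold on the exons before it. Those earlier exons held few reads, a mean of 20.2 counts per library and 0.0264 to 0.189 CPM in the MSCV lines. Their ratio and its gap to that of the last exon are therefore imprecise. The gap was widest for Slc7a11 and Slc38a1, and Slc38a1 was 1.23-fold higher on its last exon and 1.88-fold before it, with overlap between the lines in both. Slc38a2 was 1.72-fold and 2.25-fold higher. Since most genes show this gap, it is not particular to the transporters, and its origin was not tested.

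**Figure D4:**
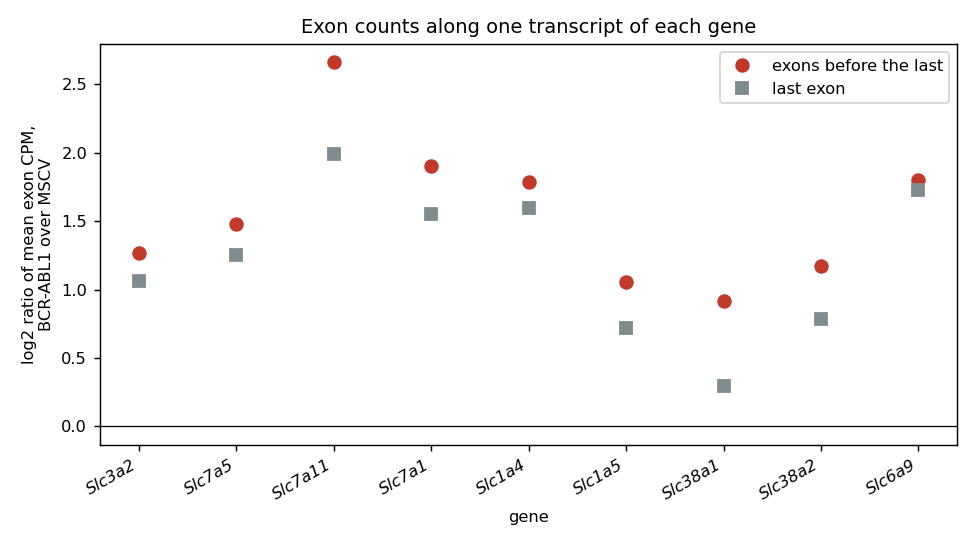
Log2 ratio of mean exon CPM in BCR-ABL1 over MSCV (vertical axis) for the exons before the last (red circles) and the last exon (grey squares) of 1 transcript per gene. Circles lie above squares for all 9 genes, with the lowest square for Slc38a1, 1.23-fold.

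The genes closest in pattern to the transporters were sought over the 12 libraries, as Pearson's r with the mean standardised level of the 9 members among 9408 protein-coding genes. The highest were Aldh18a1 (r = 0.995), an enzyme of proline synthesis, Nars (0.991), Iars (0.990) and Aars (0.988), which charge tRNA with asparagine, isoleucine and alanine, and Gpt2 (0.990), the mitochondrial alanine aminotransferase. Aldh18a1 stood at 114 ± 34 CPM in the MSCV, 267 ± 6.7 in the BCR-ABL1 and 136 ± 10 in the SFPQ-ABL1 lines (SD, n = 4). Ubl7 (-0.991), Rfxank (-0.988) and Ccdc61 (-0.985) were lowest, and Ubl7 stood at 63.7 ± 8.8, 39.3 ± 2.7 and 54.4 ± 2.1 CPM in the same order. The members' own r with their mean ran from 0.835 for Slc38a1 to 0.993 for Slc7a1. Because the 4 BCR-ABL1 lines lie apart from the other 8, these values largely restate the difference between groups, and no p is attached to them.

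Other genes of amino acid transport moved less evenly. Of 45 further transporter genes 19 were tested, and in BCR-ABL1 against MSCV 3 were higher and 7 lower, where 15.8% and 16.3% of all genes were, with a median log2 fold change of -0.45. Those lower included lysosomal carriers: Ctns, the cystine exporter of the lysosome, fell from 21.8 ± 1.1 to 11.5 ± 0.77 CPM (adjusted p = 2.18e-05), Pqlc2, an exporter of cationic amino acids, fell by 0.71 on the log2 scale (adjusted p = 0.00152), and Slc36a1, a proton-coupled carrier, fell by 0.68 (adjusted p = 0.000849). Slc38a7, a glutamine carrier of the same compartment, was 2.08-fold higher (adjusted p = 0.000573). The light chain genes Slc7a6 and Slc7a7 rose 1.37-fold and 1.57-fold (adjusted p = 0.00355 and 0.00618). In SFPQ-ABL1 against MSCV 0 of 19 were called in edgeR, where 1.79% of all genes were, with 4 at an unadjusted p under 0.05, 0 in limma-voom and 1 in DESeq2, and 2 were called without SFPQ-ABL1 line 2. In SFPQ-ABL1 against BCR-ABL1 4 were higher and 2 lower, where 13.2% and 12.8% of all genes were. Ctns was 1.56-fold higher (adjusted p = 0.000346) and Pqlc2 1.57-fold higher (0.00357), while the log2 fold change was -0.90 for Slc7a7 (0.00138) and -0.94 for Slc38a7 (0.00176).

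The amino acid response list holds ATF4, its partners and its known targets other than transporters. Of 17 genes 13 were tested. Atf3, Chac1, Stc2 and Vldlr were not, with at most 0.121 CPM in any line of any group, so the list did not rise as a whole. Of those tested, 13 of 13 were higher in BCR-ABL1 than in MSCV, 11 of them at least 2-fold, where 15.8% and 4.48% of all genes were. Their median log2 fold change was 1.35. Atf4 itself stood at 267 ± 73 CPM in the MSCV, 596 ± 117 in the BCR-ABL1 and 380 ± 42 in the SFPQ-ABL1 lines (SD, n = 4). Trib3, a pseudokinase induced by ATF4, was 12.9-fold higher than in MSCV (adjusted p = 2.71e-05), and Asns, asparagine synthetase, 4.36-fold (3.03e-05). Eif4ebp1, a repressor of translation, was 2.28-fold higher (1.88e-05) and Sesn2, a leucine sensor that restrains mTORC1, 2.57-fold (2.18e-05). In SFPQ-ABL1 against MSCV 0 of 13 were called in edgeR, where 1.79% of all genes were, with 3 at an unadjusted p under 0.05, 0 in limma-voom and 1 in DESeq2, and without MSCV line 1 there was 1. All 13 were lower in SFPQ-ABL1 than in BCR-ABL1, where 12.8% of all genes were called lower. The log2 fold change was -3.28 for Trib3 (adjusted p = 0.000104), -2.73 for Ddit3, a transcription factor of the stress response (9.14e-05), -1.24 for Sesn2 (9.24e-05) and -1.15 for Eif4ebp1 (6.87e-05). Within the MSCV group line 1 was the highest in 10 of the 13 genes, against 22.0% of all genes. MSCV line 2 was the lowest in 9, against 32.9% of all genes. For the transporters these lines were the highest in 9 and the lowest in 7 of 9. SFPQ-ABL1 line 4 was the highest of its group in 10, against 24.7% of all genes. These counts are descriptions, and their cause was not tested.

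**Figure D5:**
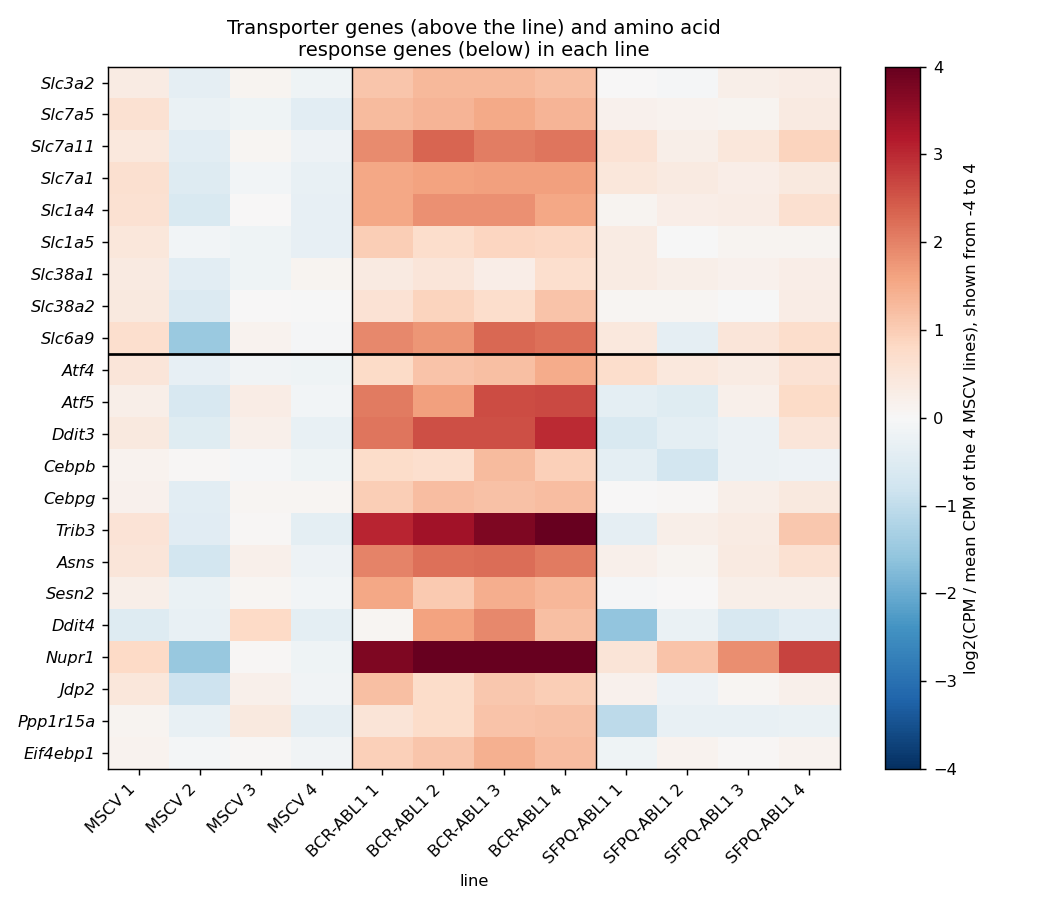
Heatmap of log2 of CPM over the mean CPM of the 4 MSCV lines (colour scale from -4 to 4, beyond which the colour no longer changes) for the 9 tested transporter genes, above the line, and the 13 tested amino acid response genes, below it; columns are the 12 lines. The 4 BCR-ABL1 columns are red in nearly all rows, MSCV line 1 is faintly red and MSCV line 2 faintly blue across most rows, and the SFPQ-ABL1 columns are near the MSCV mean for the transporters.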

How the data were processed

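For each of 12 libraries the authors deposited raw counts, unnormalized, in a table of Ensembl genes and a table of Ensembl exons. Per the submitters' processing notes, Subread, featureCounts and mm10 were used. How strand and reads with several matches were handled, and the versions, are not given in those sources. Symbols and coordinates came from GENCODE M21, which held 55230 of the 55471 gene and 524704 of the 527754 exon identifiers. Promoter windows came from RefSeq tables.

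The gene counts went into edgeR 4.0.16 under R 4.3.3: filterByExpr, TMM factors (0.960 to 1.05) and the two-sided quasi-likelihood test, with 1 model for all 12 libraries and no term but the group. P-values were adjusted by Benjamini-Hochberg over all genes tested, and ± SE beside a log2 fold change comes from this fit. DESeq2 1.42.0, limma 3.58.1 (voom), other scalings, no filter, exon sums, a term for line number and leaving out each library were alternatives. The fit was checked on simulated data. Counts are PCR reads without molecular identifiers, and p-values measure the spread between the lines deposited. The 18 pairs of replicate lines differed by a chi-square of 33.1 to 182 per degree of freedom, so none agreed within sampling noise.

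The members, the gene lists and the tests were chosen with earlier results of these data known. All 10 members are named. Of each other list, up to 4 called genes with the smallest adjusted p per comparison are named, along with the 5 highest and 3 lowest genes by likeness of pattern (mean of at least 5 CPM, prior count 2). Slc7a6, Slc7a7 against MSCV, Atf4 and B4galt2 are named outside this rule, after their values were seen. So are further amino acid response genes with a promoter match or with too few reads.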

Additional observations from a re-analysis of the deposited data

Results flagged for a closer look

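Of 30 sets of 4 lines (10 genes in 3 groups), 2 held a line far from the other 3 by Dixon's ratio, where chance gives about 1 in 20. Slc7a5 in MSCV line 1 stood at 256 CPM, where the other MSCV lines had 125 to 147 CPM. Without that line, the log2 fold change of Slc7a5 was 1.67 for BCR-ABL1 against MSCV and 0.49 for SFPQ-ABL1 against MSCV (adjusted p = 0.0279 in edgeR). Slc7a3 in BCR-ABL1 line 3 stood at 0.0152 CPM, which is 1 count, against 0.0674 to 0.0775 CPM and 5 counts in each of the 3 remaining lines of its group. At so few counts the precision is low.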

How the results depend on the processing

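The number of transporter genes called was 8 or 9 in BCR-ABL1 against MSCV and 8 in SFPQ-ABL1 against BCR-ABL1 in all 20 alternatives. In SFPQ-ABL1 against MSCV it was 0 in all but 1, the range over left-out libraries being 0 to 2. The other counts that moved by more than 1.5 times, or from 0, were these, in SFPQ-ABL1 against MSCV unless named: DESeq2 called 1 further transporter, 1 amino acid response gene and 1 mTORC1 sensing gene where edgeR called 0; without the filter on low counts 1 amino acid response gene was called; exon sums, which count overlapping exons repeatedly, called 3 further transporters in SFPQ-ABL1 against BCR-ABL1 in place of 6. With left-out libraries the counts ran from 0 to 2 for further transporters, 0 to 1 for the amino acid response, 0 to 1 for mTORC1 sensing and 1 to 3 for enzymes. Smaller moves over all alternatives were, in BCR-ABL1 against MSCV, 8 to 14 around 11 for mTORC1 sensing and 9 to 12 around 10 for further transporters, and, in SFPQ-ABL1 against BCR-ABL1, 6 to 10 around 9 for enzymes. There, left-out libraries gave 5 to 10 around 7 for mTORC1 sensing and 5 to 8 around 6 for further transporters. The call of Slc38a1 in BCR-ABL1 against MSCV was also lost with only the 8 libraries compared (log2 0.46, adjusted p = 0.0574). Slc38a2 in SFPQ-ABL1 against MSCV reversed without MSCV line 2, to a log2 fold change of -0.0149 (adjusted p = 0.970), the lower end of a range up to 0.29 with left-out libraries. The cause was not tested.

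Line numbers were not taken to pair the lines, since the labels give them no meaning and not every same-numbered pair correlated over 0.1. Same-numbered lines of different groups correlated in their deviations by -0.0063 to 0.385, over 0.1 in 7 of 12 pairs against 6 of 36 other pairs. Of the 12 libraries, 9 correlated best with their own number, a hint from the data that some numbers are shared in more than name. With line number as a replicate block, the transporter counts were 9, 0 and 8 as without it, and mTORC1 sensing genes went from 0 to 2 in SFPQ-ABL1 against MSCV and from 7 to 12 in SFPQ-ABL1 against BCR-ABL1. Over all genes, SFPQ-ABL1 against MSCV gave 308 calls, 1131 with DESeq2, 726 with the block, 157 with exon sums, 110 with 8 libraries and 33 to 467 with left-out libraries, the lowest without MSCV line 3 and the highest without SFPQ-ABL1 line 2. Without normalization factors 64.8% of its calls were higher in place of 45.5%, and 61.9% in place of 50.7% in SFPQ-ABL1 against BCR-ABL1.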

Other observations

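Of 29 genes of the mTORC1 branch that senses amino acids 28 were tested, and in BCR-ABL1 against MSCV 4 were higher and 7 lower, where 15.8% and 16.3% of all genes were, with a median log2 fold change of 0.06. Sesn2, which was higher, is counted in the amino acid response list and not here. Slc38a9, which was lower, is counted both here and among the further transporters. Sesn1, a relative of the leucine sensor Sesn2, fell from 47.9 ± 2.5 to 20.3 ± 3.3 CPM (SD, n = 4; adjusted p = 3.46e-05 in edgeR), and Castor2, a relative of the arginine sensor Castor1, fell by 1.49 on the log2 scale (adjusted p = 0.000925). Fnip2, a partner of folliculin, and Seh1l, a subunit of the GATOR complex and the nuclear pore, rose 1.51-fold and 1.69-fold (adjusted p = 0.00126 and 0.00377). In SFPQ-ABL1 against MSCV 0 of 28 were called in edgeR, where 1.79% of all genes were, with 8 at an unadjusted p under 0.05, 0 in limma-voom and 1 in DESeq2, and 1 was called without SFPQ-ABL1 line 2. In SFPQ-ABL1 against BCR-ABL1 7 of 28 were called, a share near the 26% of all genes, 4 of them higher and 3 lower. Sesn1 was 1.74-fold and Wdr24, of the GATOR complex, 1.37-fold higher, with adjusted p of 0.000773 and 0.00606. The log2 fold change was -0.74 for Fnip2 and -0.68 for Lamtor4, of the lysosomal Ragulator complex (adjusted p = 0.000585 and 0.0045).

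Of 20 genes for enzymes that use the transported amino acids 15 were tested, and 8 were higher and 4 lower in BCR-ABL1 than in MSCV, where 15.8% and 16.3% of all genes were. Got1, the cytosolic aspartate aminotransferase, was 3.004-fold higher (adjusted p = 1.56e-05) and Gpt2 3.204-fold (0.000169), while Asl, argininosuccinate lyase, fell by 0.78 on the log2 scale (0.000113). Odc1, ornithine decarboxylase, the entry to polyamine synthesis, was the 1 gene of the list called in SFPQ-ABL1 against MSCV, where 1.79% of all genes were called. It stood at 77.2 ± 12 CPM in the MSCV, 162 ± 10 in the BCR-ABL1 and 134 ± 12 in the SFPQ-ABL1 lines (SD, n = 4), 2.10-fold (adjusted p = 3.96e-05) and 1.73-fold (0.0099) over MSCV, and the difference between the fusions did not pass the test (log2 -0.28, adjusted p = 0.0841). Without MSCV line 1, 3 enzyme genes were called in SFPQ-ABL1 against MSCV. In SFPQ-ABL1 against BCR-ABL1 3 were higher and 6 lower, where 13.2% and 12.8% of all genes were, with Asl 1.53-fold higher (adjusted p = 0.000926). The log2 fold change was -1.34 for Got1, -1.30 for Gpt2 and -0.50 for Shmt2, the mitochondrial serine hydroxymethyltransferase (adjusted p = 9.2e-05, 0.00128 and 0.00759).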
